A study of Ictalurus punctatus with 14 samples.

Results

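Whole channel catfish (*Ictalurus punctatus*) of the Kansas random strain were compared at 6 dpf and 2 dpf (days post fertilization), the start of larval life against the embryo still inside its chorion. The comparison used 4 of the 14 RNA-seq libraries of a series that ran over 7 stages: 2 libraries of 6 dpf and 2 of 2 dpf, chosen by their stage labels. Each library held the RNA of 4 pooled fish, drawn at random for each pool of a stage. The p-values thus measure the spread between pools, which was estimated from all 7 stages together. All groups are fish of the same strain, and the labels name no treatment. The study's methods mention treatments, not described, that ended before hatching was due. They also state that swim-up fry were fed from 7 dpf, so a comparison of 7 with 5 dpf spans the start of feeding. The 2 libraries of 5 dpf were then used to ask how much of each change was already present a day before 6 dpf.

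Between these stages a catfish embryo leaves its chorion, its eyes become visible, and it begins to use up its yolk sac. Differentiated tissues such as retina, muscle, bone and myelinated nerve take over from dividing progenitors, and the first wave of red blood cells, which fish embryos make before hatching, gives way to later ones. In teleosts the layer of yolk next to the embryo makes many of the lipid carriers and plasma proteins that the liver makes later. RNA from whole fish cannot tell fewer cells of a type from less RNA per cell.

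The 6 dpf libraries held 9677682 and 9899297 counts and the 2 dpf libraries 10708575 and 10906305 counts, whereas the 5 dpf libraries were the shallowest used here, with 4349807 and 5885954. The log2 values of the 2 pools correlated across genes at r = 0.989 for 6 dpf, 0.988 for 2 dpf and 0.983 for 5 dpf, and genes are not independent replicates. Mapping rates, as described for these libraries, were similar at 6 and 2 dpf and lower at 5, 7 and 9 dpf. A difference between 6 and 5 dpf cannot be told apart from the difference in mapping by these stages alone, and 7 dpf against 5 dpf, which share the lower mapping, is given beside it.

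Levels are given as CPM, the counts of a gene relative to the total of its library, scaled by library composition. A gene was called when its fold change was at least 2, a log2 value of 1, with an adjusted p under 0.05 in edgeR's quasi-likelihood test over 20329 genes. Of these, 6741 were called between 6 and 2 dpf. At 6 dpf 4782 genes were higher, 23.5% of those tested, and 1959 were lower, 9.64%. The median log2 difference over all genes was 0.03.

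The largest rises among genes with an assigned symbol and at least 10 CPM were all crystallins, the packed refractive proteins of lens fibres. *crgm2* had 185 and 187 CPM at 6 dpf, against 0.85 and 0.417 CPM at 2 dpf. *cryba4* had 238 and 256 CPM at 6 dpf, against 1.7 and 0.209 CPM at 2 dpf. Both lens genes were picked by the size of their rise, so the gap between their pools is no added support. Their log2 differences were 8.17 ± 0.48 and 8.00 ± 0.51 (SE, n = 2 pools a stage, edgeR adjusted p = 1.3e-07 and 2.34e-07). *crygn2*, *crybb1* and *crybb1l1* followed with log2 differences of 7.98, 7.82 and 7.70. All 12 tested members of the lens list were higher at 6 dpf, against 23.5% of all genes. Their median log2 difference was 5.49. It was 4.96 with genes that had no count at 2 dpf set to the lower bound that 3 counts allow. The lens change was already there at 5 dpf, when 11 of the 12 were called higher, against 21.3% of all genes. Between 6 and 5 dpf 0 were called by edgeR or by DESeq2 (1 at an unadjusted p under 0.05). That lay near the shares of all genes, 7.34% higher and 2.56% lower.

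The largest fall was in *hbae3*, an embryonic alpha globin in zebrafish. It had 1.54 and 0.778 CPM at 6 dpf, against 2350 and 1910 CPM at 2 dpf, a log2 difference of -10.83 ± 0.46 (SE, edgeR adjusted p = 3.65e-08). *urahb*, an enzyme of urate breakdown, had 0.309 and 0.195 CPM at 6 dpf, against 102 and 80.5 CPM at 2 dpf. *irg1l*, *lin28ab* and *prtgb* fell by 6.53, 5.90 and 5.73 on the log2 scale. lin28 proteins bind RNA and keep cells in an immature state, and protogenins are receptors of the early neural tube and mesoderm in other vertebrates. Each of these 5 genes was at or below 5.86 CPM in both 5 dpf pools, so their falls also preceded 5 dpf.

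Most of the change between embryo and larva was visible a day earlier. Of the 6741 genes called between 6 and 2 dpf, 4777 (70.9%) were called in the same direction between 5 and 2 dpf, a comparison that called 21.3% of all genes higher and 11.9% lower. Both comparisons share the 2 dpf libraries, and the genes were selected by their call at 6 dpf. Agreement at 5 dpf is thus in part built in. The log2 difference at 5 dpf came to a median of 87.4% of that at 6 dpf, with quartiles of 62.7% and 106%. The median was 91.0% for the genes that rose and 76.2% for those that fell. In all, 3295 genes (16.2% of those tested) had a change complete by 5 dpf, meaning the same call at both stages and less than 1.5-fold between 6 and 5 dpf. They were 2556 rises and 739 falls.

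A smaller set moved late. These genes were called between 6 and 2 dpf and again, in the same direction, between 6 and 5 dpf, a comparison in which 1492 genes (7.34%) were higher and 520 (2.56%) lower. They numbered 728, or 10.8% of the genes called between 6 and 2 dpf, with 543 late rises (2.67% of genes tested) and 185 late falls (0.91%). The change was not seen by 5 dpf, being under 1.5-fold in that direction, in 255 rises and 127 falls. It was incomplete at 5 dpf in the other 288 rises and 58 falls. Next to the dividing value, a log2 of 0.58, stood *nhsl2* at 0.56 and *col12a1b* at 0.59 among the rises, and *tafa1a* at -0.53 and *epor* at -0.65 among the falls. Of the 6741 genes, 1964 had no call in the same direction between 5 and 2 dpf, and 487 of these belong to the late set. The others had no call in that direction between 6 and 5 dpf either, so when they changed is not resolved.

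**Figure D1:**
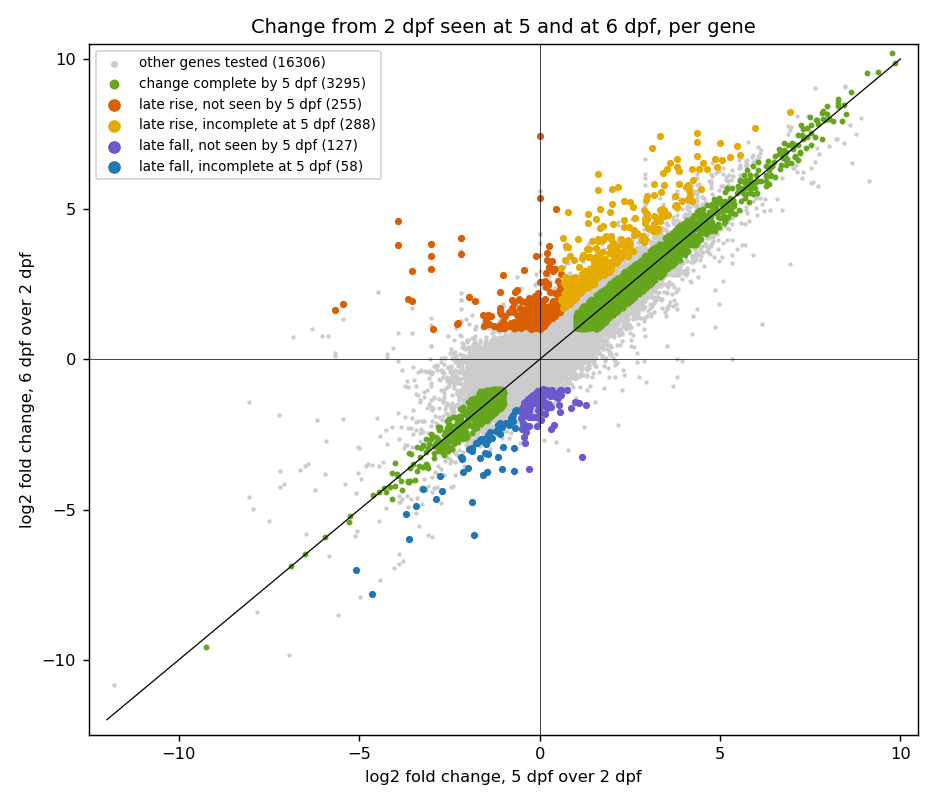
Each point is 1 of 20329 genes, with the log2 fold change of 5 dpf over 2 dpf on the horizontal axis and that of 6 dpf over 2 dpf on the vertical axis; the diagonal marks equal change. The 3295 genes complete by 5 dpf lie along the diagonal, 543 late rises lie above it and 185 late falls below it.

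The late calls depended on single libraries more than the change from 2 dpf did. Leaving out 1 library left 6001 to 6464 genes called between 6 and 2 dpf. Between 6 and 5 dpf it left 859 without 5 dpf replicate 2, 989 without 5 dpf replicate 1, 1196 without 6 dpf replicate 1 and 1239 without 6 dpf replicate 2, against 2012 with all libraries. Dropping a pool leaves that stage with 1 library, which the fit then takes to vary like the other stages.

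The same late genes were examined at 7 dpf, a stage with the lower mapping of 5 dpf. Across all genes, 608 (2.99%) were higher and 302 (1.49%) lower at 7 than at 5 dpf. Of the 728 late genes, 325 (44.6%) were called at 7 against 5 dpf in the direction they had taken at 6 dpf, and 0 in the opposite direction by edgeR, at an unadjusted p under 0.05 or by DESeq2. Both comparisons share the 5 dpf libraries. The share was 170 of 288 for incomplete rises and 39 of 58 for incomplete falls, but 78 of 255 and 38 of 127 for the changes not seen by 5 dpf. The late genes were selected on those libraries, so agreement at 7 dpf is in part built in and is given as a description.

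A contrast of 8 dpf against the mean of 7 and 9 dpf sets the higher mapping against the lower with time balanced, and uses none of the libraries that defined the late set. It called 54 genes (0.266%) higher and 128 (0.63%) lower. Among the 728 late genes it called 5 and 3 of the rises not seen and incomplete, and 6 and 1 of the falls, in their late direction. In the opposite one it called 0 by edgeR or DESeq2, with 34 at an unadjusted p under 0.05. The median log2 difference in this contrast was 0.20 for rises not seen by 5 dpf, 0.12 for incomplete rises, -0.18 for falls not seen and 0.04 for incomplete falls, against 0.02 for all genes.

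Gene length moved with the late groups. The genomic span of the gene in the Coco_2.0 RefSeq annotation had a median of 41.7 kb in rises not seen by 5 dpf and 21.9 kb in incomplete rises. It was 5.2 kb in falls not seen by 5 dpf, 5.72 kb in incomplete falls, 14.4 kb in genes complete by 5 dpf and 12.2 kb in all genes, with a span known for at least 93.3% of each group. With all genes ranked by span into 5 equal bins, the bin of the longest had a median log2 difference of 0.38 between 6 and 5 dpf and that of the shortest one of -0.28. The same bins stood at 0.28 and -0.22 between 7 and 5 dpf, at 0.52 and -0.21 between 6 and 2 dpf, and at 0.07 and 0.09 between 5 and 2 dpf. The part that length or RNA quality plays in the late calls was not tested.

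The gene lists for tissues and processes differed in how their members split between early and late change. The plot of list members called shows each list as a share of its tested members beside the share over all genes.

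**Figure D2:**
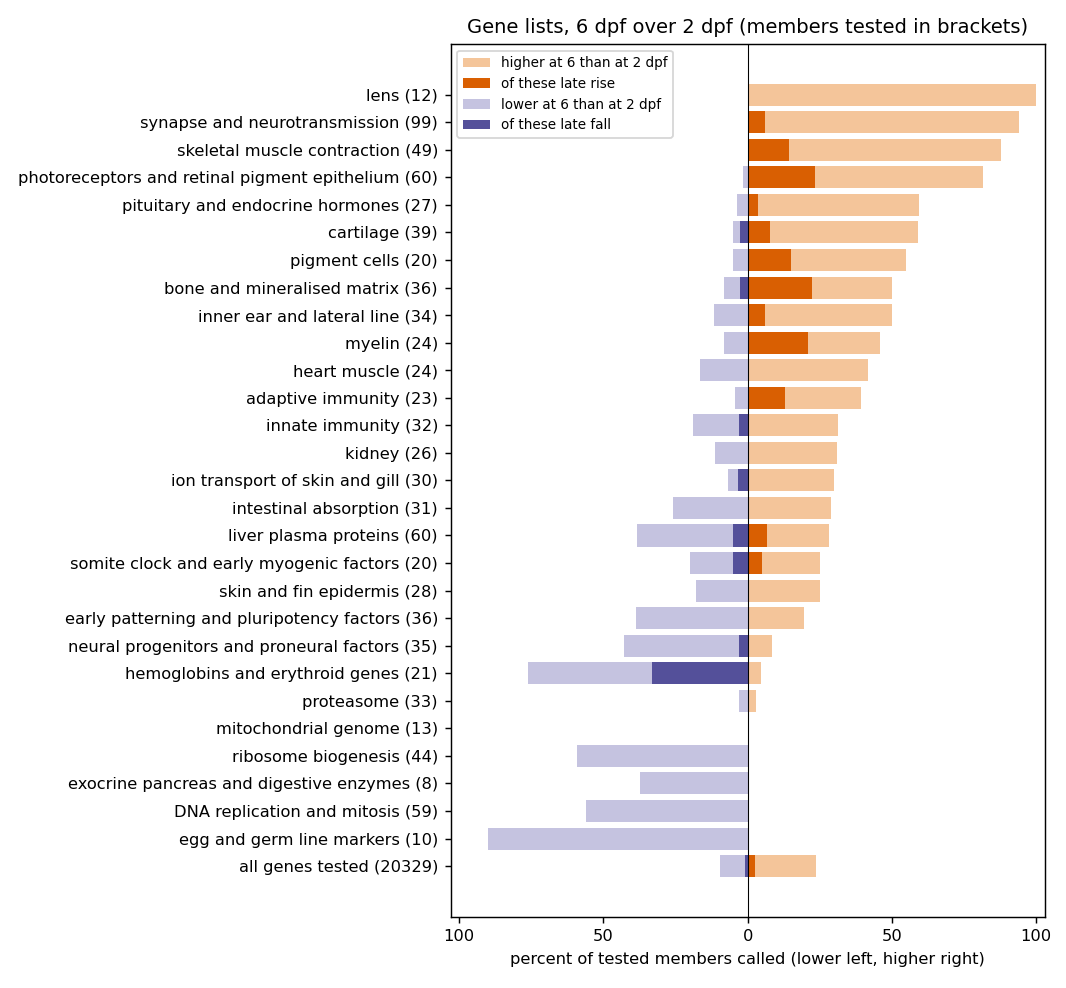
Bars give the percent of tested members of each gene list called higher (right) or lower (left) at 6 dpf than at 2 dpf, with the darker part the late rises or late falls; the number of members tested is in brackets. Lens, synapse, muscle and photoreceptor lists stand far to the right of the 23.5% for all genes, and the darkest part on the left is that of the erythroid list.

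Most photoreceptor genes were higher at 6 than at 2 dpf, and a minority were called higher again between 6 and 5 dpf. Of 63 members of the photoreceptor and retinal pigment epithelium list, 60 were tested. Of the 60, 49 were higher (81.7%, against 23.5% of all genes) and 1 lower (1.67%, against 9.64%) at 6 than at 2 dpf. The median log2 difference was 2.98. At 5 dpf 36 were already higher than at 2 dpf (60%, against 21.3% of all genes). Between 6 and 5 dpf 14 were higher and 0 lower (0 also by DESeq2 and at an unadjusted p under 0.05 in edgeR), and all 14 were late rises, 12 incomplete and 2 not seen by 5 dpf, a share of 23.3% against 2.67% of all genes. The late members included proteins of the light response in both photoreceptor types.

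*arr3a*, the arrestin that shuts off cone pigments, had 2.02 and 3.13 CPM at 2 dpf, 9.69 and 6.55 CPM at 5 dpf, and 39.5 and 40.3 CPM at 6 dpf. Its 6 dpf pools overlapped those of neither earlier stage and both steps were upward, which the rules that sorted and named it required. The log2 difference was 3.95 ± 0.34 between 6 and 2 dpf and 2.32 ± 0.32 between 6 and 5 dpf (SE, edgeR adjusted p = 1.92e-06 and 0.000747). *gngt1*, the gamma subunit of rod transducin, had 0.425 and 0.417 CPM at 2 dpf, 4.28 and 5.04 CPM at 5 dpf, and 12.7 and 14.4 CPM at 6 dpf. *saga*, a rod arrestin, had 0.956 and 1.15 CPM at 2 dpf, 5.41 and 5.04 CPM at 5 dpf, and 12.4 and 13.1 CPM at 6 dpf. For these rod genes the log2 difference between 6 and 5 dpf was 1.52 ± 0.31 and 1.29 ± 0.25 (SE, edgeR adjusted p = 0.00576 and 0.00435). *rbp3*, which carries retinoids between photoreceptors and pigment epithelium, had 3 counts in both 2 dpf libraries together, and its level at 6 dpf was 138 times higher (95% exact counting interval 46.9 to 672). Its difference between 6 and 5 dpf did not reach the threshold (log2 0.86, edgeR adjusted p = 0.0994).

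Among members named after their values were seen, *gnat2*, the alpha subunit of cone transducin, had 0.956 and 0.73 CPM at 2 dpf, 2.25 and 2.52 CPM at 5 dpf, and 7.31 and 7.69 CPM at 6 dpf. *gnat1*, its rod counterpart, had 1.17 and 0.835 CPM at 2 dpf, 9.92 and 7.89 CPM at 5 dpf, and 12.1 and 11 CPM at 6 dpf. The cone gene was thus called late and the rod gene complete by 5 dpf. *crx*, a transcription factor of photoreceptor precursors, was complete by 5 dpf too, with 4.28 and 3.36 CPM at 5 dpf and 3.4 and 3.79 CPM at 6 dpf. The visual cycle gene *rpe65a* of the pigment epithelium had 7.89 and 7.72 CPM at 5 dpf and 8.54 and 8.07 CPM at 6 dpf, and was called higher than at 2 dpf at both stages. Only *rdh8a* of this list was lower at 6 than at 2 dpf, with 2.99 and 3.11 CPM at 6 dpf, against 24.3 and 23.5 CPM at 2 dpf. The 14 late members became 6 without 5 dpf replicate 1, 2 without 5 dpf replicate 2, 8 without 6 dpf replicate 1 and 7 without 6 dpf replicate 2. Without 5 dpf replicate 2 the late call of *saga* was lost (edgeR adjusted p = 0.0659), and that of *gngt1* was lost without either 5 dpf pool (0.0656 and 0.057).

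Bone genes showed the same pattern in their regulators and in their collagens. Of 36 tested members, 18 were higher (50%, against 23.5% of all genes) and 3 lower (8.33%, near 9.64%) at 6 than at 2 dpf. The 8 late rises were 22.2% of the list, against 2.67% of all genes. *runx2b*, one of the pair of runx2 transcription factors that commit cells to the osteoblast lineage, had 0.212 and 0.417 CPM at 2 dpf, 1.8 and 3.86 CPM at 5 dpf, and 16.4 and 12.8 CPM at 6 dpf. The log2 difference between 6 and 5 dpf was 2.31 ± 0.36 (SE, edgeR adjusted p = 0.00136). Its duplicate *runx2a*, named after its values were seen, had 1.7 and 0.73 CPM at 2 dpf, 4.28 and 5.21 CPM at 5 dpf, and 16.4 and 13.1 CPM at 6 dpf.

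The fibrillar collagens of bone and dermis split. *col5a2b*, a chain of the collagen that starts fibrils, had 1.81 and 1.04 CPM at 2 dpf, 27.7 and 33.3 CPM at 5 dpf, and 134 and 98.2 CPM at 6 dpf. *col1a1a*, the main chain of type I collagen, had 2660 and 2700 CPM at 2 dpf, 3140 and 3150 CPM at 5 dpf, and 9450 and 7000 CPM at 6 dpf, and *col1a1b* had 2210 and 2260 CPM at 2 dpf, 2600 and 2570 CPM at 5 dpf, and 7570 and 5450 CPM at 6 dpf. For both type I chains the 5 dpf pools lay close to those of 2 dpf and the 6 dpf pools far above. The partner chain *col1a2* was called between 6 and 2 dpf with a log2 difference of 1.27, but its 0.85 between 6 and 5 dpf did not pass (edgeR adjusted p = 0.144). *col10a1a*, a marker of osteoblasts in fish and of hypertrophic cartilage, averaged 5.83 CPM at 2 dpf, 504 CPM at 5 dpf and 509 CPM at 6 dpf, so that its change was complete by 5 dpf. The type I collagens and *col1a2* were named after their values were seen.

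*acp5a* moved the other way. It encodes tartrate-resistant acid phosphatase, the enzyme by which osteoclasts are stained, and had 1540 and 1650 CPM at 2 dpf, 559 and 565 CPM at 5 dpf, and 181 and 184 CPM at 6 dpf. It was a late fall, incomplete at 5 dpf, with log2 differences of -3.13 between 6 and 2 dpf and -1.62 between 6 and 5 dpf, and was named after its values were seen. *mmp9* and *mmp13*, matrix proteases of the same list, also fell between 2 and 6 dpf, by 3.39 and 2.98 on the log2 scale, and were also named after their values were seen. The 8 late rises of bone became 3 without 5 dpf replicate 1, 3 without 5 dpf replicate 2, 3 without 6 dpf replicate 1 and 5 without 6 dpf replicate 2. *col5a2b* lost its late call without 5 dpf replicate 1 (edgeR adjusted p = 0.0771), 5 dpf replicate 2 (0.0606) or 6 dpf replicate 1 (0.0597).

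Most cartilage genes were higher at 6 than at 2 dpf, and some dipped between 5 and 6 dpf. Of 39 tested members, 23 were higher (59%, against 23.5% of all genes) and 2 lower (5.13%, against 9.64%) at 6 than at 2 dpf. From 5 to 6 dpf, 5 members fell (12.8%, against 2.56% of all genes) and 4 rose (10.3%, near the 7.34%). The 2 lower members became 1 without 2 dpf replicate 2 or either 6 dpf pool. *matn1*, a matrix protein of cartilage, had 0.956 and 0.835 CPM at 2 dpf, 509 and 507 CPM at 5 dpf, and 69.9 and 42.1 CPM at 6 dpf. *acana*, the aggrecan core protein that holds water in cartilage, had 8.92 and 8.45 CPM at 2 dpf, 266 and 284 CPM at 5 dpf, and 94 and 73.4 CPM at 6 dpf, and was named after its values were seen. Both were above their 2 dpf level at each later stage shown and below their 5 dpf level at 6 dpf. At 7 dpf they were close to their 5 dpf levels, *matn1* with 484 and 511 CPM at 7 dpf and *acana* with 273 and 272 CPM at 7 dpf. The pools of *matn1* lay far apart at later stages, with 32.6 and 389 CPM at 9 dpf and 114 and 15.5 CPM at 10 dpf. Over the list the median log2 difference was -0.02 between 7 and 5 dpf, against -0.58 between 6 and 5 dpf. The fall of *matn1* between 5 and 6 dpf had a log2 difference of -3.18 ± 0.94 (SE, edgeR adjusted p = 0.0318) and was lost on leaving out any of the 4 libraries compared, with adjusted p of 0.119 without 6 dpf replicate 1, 0.176 without 6 dpf replicate 2, 0.094 without 5 dpf replicate 1 and 0.101 without 5 dpf replicate 2.

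*col11a1b*, a minor fibrillar collagen shared by cartilage and other tissues, rose late instead. It had 32.8 and 22.3 CPM at 2 dpf, 72.8 and 68.2 CPM at 5 dpf, and 384 and 317 CPM at 6 dpf, with a log2 difference of 2.31 ± 0.28 between 6 and 5 dpf (SE, edgeR adjusted p = 0.000374). *trps1*, a repressor in growing cartilage, was not seen by 5 dpf, with 17.7 and 15.9 CPM at 2 dpf, 18 and 18 CPM at 5 dpf, and 60.9 and 54.2 CPM at 6 dpf. *snorc*, a small proteoglycan of cartilage, was the list's 1 late fall (0 without 2 dpf replicate 2 or any pool of 5 or 6 dpf), with 14 and 17.2 CPM at 2 dpf, 22.5 and 19 CPM at 5 dpf, and 3.71 and 3.21 CPM at 6 dpf. The call of *snorc* between 6 and 5 dpf (edgeR adjusted p = 0.0164) was lost without any of the 4 libraries of those stages (0.0684 to 0.103), and that between 6 and 2 dpf was lost without 2 dpf replicate 2 (0.0609), 6 dpf replicate 1 (0.0586) or 6 dpf replicate 2 (0.0775).

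Most skeletal muscle genes were higher at 5 than at 2 dpf, and some genes of giant scaffold and calcium release proteins rose late. The contraction list had 49 tested members. Of these, 43 were higher (87.8%, against 23.5% of all genes) and 0 lower (against 9.64%) at 6 than at 2 dpf. The median log2 difference was 2.88, and 41 were higher at 5 than at 2 dpf (83.7%, against 21.3% of all genes). The 0 lower members stayed 0 by DESeq2, at an unadjusted p under 0.05 in edgeR and without each library of 6 and 2 dpf. The list also rose after 5 dpf: at 7 against 5 dpf 20 of the 49 were called higher, 40.8% against 2.99% of all genes. The median log2 difference of the list between 7 and 5 dpf was 0.84. Troponin genes were complete early: *tnnt3b* had 4.35 and 2.82 CPM at 2 dpf, 125 and 122 CPM at 5 dpf, and 94.9 and 102 CPM at 6 dpf. *neb*, the giant protein that sets thin filament length, had 402 and 291 CPM at 2 dpf, 1080 and 1090 CPM at 5 dpf, and 3010 and 2830 CPM at 6 dpf. *trdn*, which anchors the calcium release complex, had 5.42 and 3.23 CPM at 2 dpf, 6.76 and 8.23 CPM at 5 dpf, and 20.6 and 22.7 CPM at 6 dpf. *actn3b*, the fast fibre actinin of the Z disc, had 76.2 and 53.4 CPM at 2 dpf, 240 and 234 CPM at 5 dpf, and 653 and 557 CPM at 6 dpf.

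The rise at each step in these 3 genes follows from the rule that sorted them as incomplete late rises. The log2 difference between 6 and 5 dpf was 1.43 ± 0.30 for *neb*, 1.52 ± 0.33 for *trdn* and 1.35 ± 0.32 for *actn3b* (SE, edgeR adjusted p = 0.00644, 0.00796 and 0.011). The late members were 7 in all, 14.3% of the list against 2.67% of all genes. The others were *ryr1a*, *myom2a*, *myom2b* and *mybpc2a*, which were named after their values were seen. Each of the 7 was called higher at 7 than at 5 dpf too. Their number is sensitive to the libraries: 1 remained without 5 dpf replicate 1, 0 without 5 dpf replicate 2, 1 without 6 dpf replicate 1 and 3 without 6 dpf replicate 2. Without 5 dpf replicate 1 or 2 the edgeR adjusted p was 0.0733 and 0.0738 for *neb*, 0.0871 and 0.0665 for *trdn* and 0.0906 and 0.101 for *actn3b*. Without 6 dpf replicate 1 it was 0.0528 for *neb* and 0.0873 for *actn3b*, and without 6 dpf replicate 2 it was 0.0582 for *trdn*. The heart list had 10 of 24 members higher (41.7%, against 23.5% of all genes) and 4 lower (16.7%, against 9.64%) at 6 than at 2 dpf. It had 0 late members, and 1 late rise by DESeq2. *actc1a*, a cardiac actin, had 1270 and 1050 CPM at 6 dpf, against 235 and 233 CPM at 2 dpf.

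**Figure D3:**
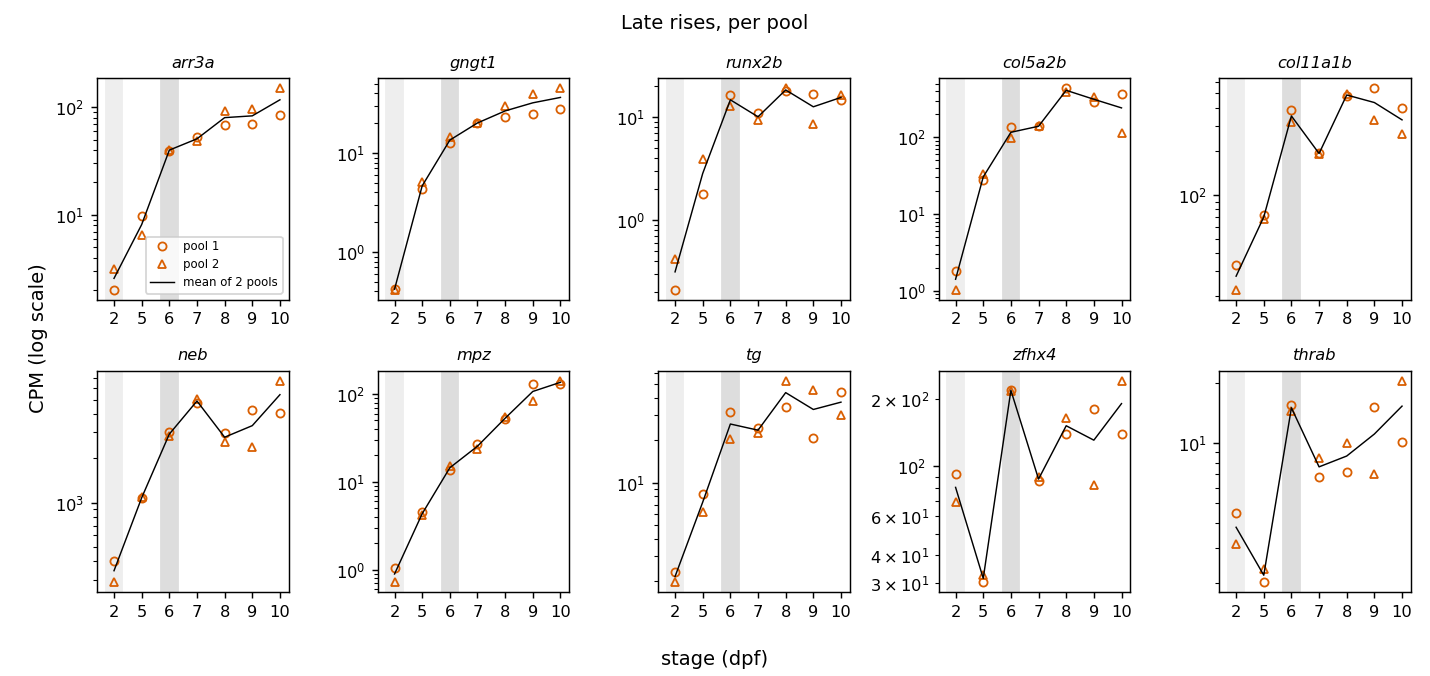
CPM on a log axis, with a scale of its own in each panel, for 10 late rises over the 7 stages from 2 to 10 dpf; circles and triangles are the 2 pools, the line is their mean, and shading marks 2 and 6 dpf. arr3a, gngt1 and mpz climb at each stage, whereas zfhx4 and thrab are lowest at 5 dpf and highest or nearly so at 6 dpf.

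Genes of myelin, the sheath that speeds conduction along axons, had started to rise. Of 24 tested members, 11 were higher at 6 than at 2 dpf (45.8%, against 23.5% of all genes) and 2 lower (8.33%, near the 9.64% of all genes). The 5 late rises were 20.8% of the list, against 2.67% of all genes. The 2 lower members became 1 without any pool of 6 or 2 dpf. *mbpa*, a structural protein of compact myelin, had 1.17 and 0.104 CPM at 2 dpf, 6.99 and 6.05 CPM at 5 dpf, and 21.3 and 19.7 CPM at 6 dpf. *mpz*, its main adhesion protein, had 1.06 and 0.73 CPM at 2 dpf, 4.51 and 4.2 CPM at 5 dpf, and 13.8 and 15.3 CPM at 6 dpf. *ugt8*, which makes the galactolipids of myelin, had 5.31 and 5.74 CPM at 2 dpf, 4.06 and 4.03 CPM at 5 dpf, and 14.4 and 15.2 CPM at 6 dpf. The first pair was incomplete at 5 dpf and the third not seen, with log2 differences between 6 and 5 dpf of 1.66 ± 0.33, 1.74 ± 0.25 and 1.87 ± 0.30 (SE, edgeR adjusted p = 0.00499, 0.00101 and 0.00155). The level of *mbpa* went on to 314 and 263 CPM at 10 dpf. *sox10*, a transcription factor of glia and neural crest, was called higher at 5 than at 2 dpf and had a log2 difference of 0.99 between 6 and 2 dpf, and *plp1a* fell, with 9.16 and 10.1 CPM at 6 dpf, against 125 and 110 CPM at 2 dpf. The 5 late members became 2 without 5 dpf replicate 1, 2 without 5 dpf replicate 2 and 3 without 6 dpf replicate 2, and *mbpa* lost its late call without either 5 dpf pool (edgeR adjusted p = 0.0512 and 0.0798). *sox10* and *plp1a* were named after their values were seen.

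Most synaptic genes were called higher at 5 as well as at 6 dpf. Of 99 tested members 93 were higher (93.9%, against 23.5% of all genes) and 0 lower (against 9.64%) at 6 than at 2 dpf. The median log2 difference was 2.84, and 82 were higher at 5 than at 2 dpf (82.8%, against 21.3% of all genes). DESeq2 also gave 0 lower members, edgeR gave 1 at an unadjusted p under 0.05, and leaving out 6 dpf replicate 2 gave 1. The 6 late rises were 6.06% of the list, against 2.67% of all genes, and 3 of them were also called between 7 and 5 dpf. They included both bassoon genes, which encode a giant scaffold of the presynaptic active zone. *bsnb* had 4.99 and 1.98 CPM at 2 dpf, 2.7 and 4.87 CPM at 5 dpf, and 25.8 and 26 CPM at 6 dpf. *bsna* had 8.18 and 5.53 CPM at 2 dpf, 9.47 and 9.91 CPM at 5 dpf, and 28.5 and 31.8 CPM at 6 dpf. The 6 became 0 without 5 dpf replicate 1, 0 without 5 dpf replicate 2, 1 without 6 dpf replicate 1 and 2 without 6 dpf replicate 2. *bsnb* lost its late call without 5 dpf replicate 1 (edgeR adjusted p = 0.0745) or 5 dpf replicate 2 (0.0529), and *bsna* without any pool of 5 or 6 dpf (0.0513 to 0.0963). The neurofilament gene *nefla*, an axonal scaffold, was a late rise outside the lists with 1.17 and 1.98 CPM at 2 dpf, 4.96 and 4.87 CPM at 5 dpf, and 25.1 and 26.7 CPM at 6 dpf. It lost its late call without 5 dpf replicate 2 (edgeR adjusted p = 0.0526).

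The 5 largest late steps among rises not seen by 5 dpf, in genes with a symbol and at least 10 CPM, were those of *zeb2b*, *zfhx4*, *thrab*, *bsnb* and *bnc2*. *zeb2b*, a zinc finger factor of neural crest and glia, had 12.3 and 13.2 CPM at 2 dpf, 4.28 and 4.7 CPM at 5 dpf, and 35.3 and 29.2 CPM at 6 dpf. *zfhx4*, a large homeodomain factor, had 92.1 and 69 CPM at 2 dpf, 30.4 and 32.6 CPM at 5 dpf, and 219 and 218 CPM at 6 dpf. *bnc2*, which zebrafish need for adult pigment stripes, had 11.7 and 10.7 CPM at 2 dpf, 6.99 and 7.89 CPM at 5 dpf, and 47.7 and 43.6 CPM at 6 dpf. All 3 were lower in both 5 dpf pools than in both 2 dpf pools before they rose. At 7 dpf *zeb2b* had 11.2 and 13.7 CPM, *zfhx4* 85.9 and 89.5 CPM and *bnc2* 13.5 and 14.6 CPM, all far below 6 dpf and near the 2 dpf pools, and only *zfhx4* was called higher at 7 than at 5 dpf. The log2 differences between 6 and 5 dpf were 2.83 ± 0.39, 2.79 ± 0.35 and 2.61 ± 0.31 (SE, edgeR adjusted p = 0.000768, 0.000464 and 0.000373).

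*thrab*, a receptor for thyroid hormone, which drives the change from larva to juvenile in fish, had 4.46 and 3.13 CPM at 2 dpf, 2.03 and 2.35 CPM at 5 dpf, and 15.5 and 14.5 CPM at 6 dpf. *tg*, the thyroglobulin on which the hormone is made, had 2.34 and 1.98 CPM at 2 dpf, 8.34 and 6.21 CPM at 5 dpf, and 31.7 and 20.4 CPM at 6 dpf. It was the sole late member of the endocrine list. In that list 16 of 27 were higher at 6 than at 2 dpf (59.3%, against 23.5% of all genes) and 1 lower (3.7%, against 9.64%). The log2 difference between 6 and 5 dpf was 2.76 ± 0.46 for *thrab* and 1.85 ± 0.40 for *tg* (SE, edgeR adjusted p = 0.00203 and 0.00742). At 7 dpf *thrab* was back at 6.76 and 8.47 CPM and was not called against 5 dpf (edgeR adjusted p = 0.0517). *tg* had 24.4 and 22.7 CPM at 7 dpf and was called higher than at 5 dpf. *tg* lost its late call without 5 dpf replicate 2 (0.0959) or 6 dpf replicate 1 (0.0683). *nts*, the peptide neurotensin, was the member that fell, with 6.18 and 8.56 CPM at 6 dpf, against 112 and 86.5 CPM at 2 dpf.

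Of the incomplete rises, *ahsg2* had the largest late step among genes the naming rule allowed. It belongs to the fetuins, plasma proteins that bind calcium phosphate, and had 4.25 and 1.04 CPM at 2 dpf, 5.63 and 7.56 CPM at 5 dpf, and 64.1 and 59.7 CPM at 6 dpf, a log2 difference of 3.21 ± 0.38 between 6 and 5 dpf (SE, edgeR adjusted p = 0.000345). Its level kept climbing, to 565 and 619 CPM at 10 dpf. *elnb*, an elastin of the arterial wall and outflow tract, had 1.27 and 0.313 CPM at 2 dpf, 7.89 and 9.57 CPM at 5 dpf, and 57 and 33.9 CPM at 6 dpf.

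The liver plasma protein list had 23 of 60 members lower at 6 than at 2 dpf, 38.3% against 9.64% of all genes. The 17 higher members, 28.3%, lay near the 23.5% of all genes. *hpxa*, the haem scavenger hemopexin, had 9.98 and 0.939 CPM at 2 dpf, 239 and 249 CPM at 5 dpf, and 707 and 782 CPM at 6 dpf. Its late call (log2 1.61 ± 0.51, edgeR adjusted p = 0.0425) failed under DESeq2 (adjusted p = 0.0635) and without each of the 4 libraries compared (0.135 to 0.201). *ttr*, the carrier of thyroid hormone, had 37.7 and 36.6 CPM at 6 dpf, against 1.17 and 1.15 CPM at 2 dpf, and was near that level at 5 dpf with 25.7 and 26.5 CPM. *tdo2b*, which breaks down tryptophan, had 2 counts in the 2 dpf libraries together and 3.29 and 3.79 CPM at 6 dpf, against 0.225 and 0.168 CPM at 5 dpf. Its level at 6 dpf was 33.7 times that at 2 dpf (95% exact counting interval 9.0 to 284). *pah*, which turns phenylalanine to tyrosine, had 0.956 and 1.15 CPM at 2 dpf, 4.73 and 4.53 CPM at 5 dpf, and 9.98 and 10.7 CPM at 6 dpf.

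The 3 late falls of the liver list (5.0%, against 0.91% of all genes) were 2 apolipoproteins, which carry lipid in plasma, and an enzyme. *apoa2* had 2940 and 3720 CPM at 2 dpf, 3590 and 3700 CPM at 5 dpf, and 1560 and 1520 CPM at 6 dpf, and *apoc1* had 2080 and 1930 CPM at 2 dpf, 2240 and 2320 CPM at 5 dpf, and 952 and 963 CPM at 6 dpf. Both had no call between 5 and 2 dpf and fell by 1.11 and 1.07 on the log2 scale between 2 and 6 dpf. *agxta*, a peroxisomal enzyme that clears glyoxylate, had 11.9 and 10.4 CPM at 2 dpf, 12.2 and 14.3 CPM at 5 dpf, and 3.91 and 4.09 CPM at 6 dpf (log2 between 6 and 5 dpf -1.73 ± 0.24, edgeR adjusted p = 0.000769). At 7 dpf *agxta* had 8.73 and 6.98 CPM and was not called against 5 dpf. It had 13 and 16 CPM at 9 dpf and 10.4 and 12.6 CPM at 10 dpf, back near its 2 dpf pools. *hao1*, which makes glyoxylate in liver peroxisomes, had 61 and 52.5 CPM at 2 dpf, 19.4 and 22.8 CPM at 5 dpf, and 7.21 and 5.64 CPM at 6 dpf. *tdo2b*, *pah*, *apoa2* and *apoc1* were named after their values were seen. The 4 late rises of the list (*hpxa*, *pah*, *tdo2b* and *rbp4l*) became 1 without 5 dpf replicate 2, where *rbp4l* had an edgeR adjusted p of 0.063.

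The red blood cell list had the largest share of late falls among the lists. Of 21 tested members 16 were lower (76.2%, against 9.64% of all genes) and 1 higher (4.76%, against 23.5%) at 6 than at 2 dpf. The median log2 difference was -1.70, and 7 members were late falls, 33.3% against 0.91% of all genes. The list held 1.12% and 0.878% of all counts in the 2 dpf pools, 1.42% and 1.47% in the 5 dpf pools, and 0.329% and 0.332% in the 6 dpf pools. Globin genes are near-identical copies in fish, and how reads were divided among them is not given in the sources used here.

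The globins took different courses. *hbae3* had 0.902 and 0.336 CPM at 5 dpf and so had fallen before that stage. *hbb*, a beta globin, had 7000 and 5520 CPM at 2 dpf, 12100 and 12600 CPM at 5 dpf, and 2380 and 2310 CPM at 6 dpf. *hbae*, an alpha globin, had 3660 and 2670 CPM at 2 dpf, 7630 and 7920 CPM at 5 dpf, and 1190 and 1020 CPM at 6 dpf. *hba*, another alpha globin named after its values were seen, had 55.7 and 39.5 CPM at 2 dpf, 536 and 573 CPM at 5 dpf, and 220 and 223 CPM at 6 dpf. The alpha and beta genes *hbae* and *hbb* thus stood highest at 5 dpf and below both earlier stages at 6 dpf, whereas *hba* stayed above its 2 dpf level.

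Between 6 and 5 dpf *hbb* fell by 2.4 and *hbae* by 2.82 on the log2 scale (SE 0.43 each, edgeR adjusted p = 0.00273 and 0.00129), and both were called lower at 7 than at 5 dpf. The difference of *hbae* between 5 and 2 dpf was 1.30, a called rise, and that of *hbb* was 0.98 and not called. Their falls between 2 and 6 dpf, by 1.52 and 1.42 on the log2 scale, were weaker calls (edgeR adjusted p = 0.00806 and 0.0115). That of *hbae* was lost without 2 dpf replicate 1 (0.0549) or 6 dpf replicate 2 (0.0577), and that of *hbb* without 2 dpf replicate 1 (0.0631), 6 dpf replicate 1 (0.056) or 6 dpf replicate 2 (0.0611).

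Membrane and haem genes of the red cell fell at different times. *slc4a1a*, the anion exchanger of the red cell membrane, had 810 and 606 CPM at 2 dpf, 175 and 179 CPM at 5 dpf, and 60.9 and 54.1 CPM at 6 dpf. *epb41b*, a protein of the membrane skeleton, had 121 and 86 CPM at 2 dpf, 93.5 and 105 CPM at 5 dpf, and 28.7 and 34.9 CPM at 6 dpf. The first fell in 2 steps and the second in a single late one, with log2 differences between 6 and 5 dpf of -1.62 ± 0.32 and -1.64 ± 0.19 (SE, edgeR adjusted p = 0.00442 and 0.000351). *alas2*, the first enzyme of haem synthesis in red cells, also fell late, with 527 and 393 CPM at 2 dpf, 480 and 486 CPM at 5 dpf, and 151 and 174 CPM at 6 dpf. Later enzymes of the same pathway were complete by 5 dpf: *urod* had 388 and 325 CPM at 2 dpf, 34.7 and 40.6 CPM at 5 dpf, and 30.8 and 28.9 CPM at 6 dpf. *hmbsa* and *fech* behaved alike, with log2 differences between 6 and 2 dpf of -3.47 and -2.89 and between 6 and 5 dpf of 0.04 and 0.05, neither of the last being called.

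The receptor *epor*, through which erythropoietin acts, was a late fall of 1.04 on the log2 scale between 5 and 6 dpf. *gata1b*, a transcription factor of the erythroid lineage, ran against the others, with 26.2 and 19.5 CPM at 2 dpf, 1.8 and 2.85 CPM at 5 dpf, and 6.18 and 4.96 CPM at 6 dpf. *alas2*, *hmbsa*, *fech*, *epor* and *gata1b* were named after their values were seen. The 7 late falls became 4 without 6 dpf replicate 1.

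**Figure D4:**
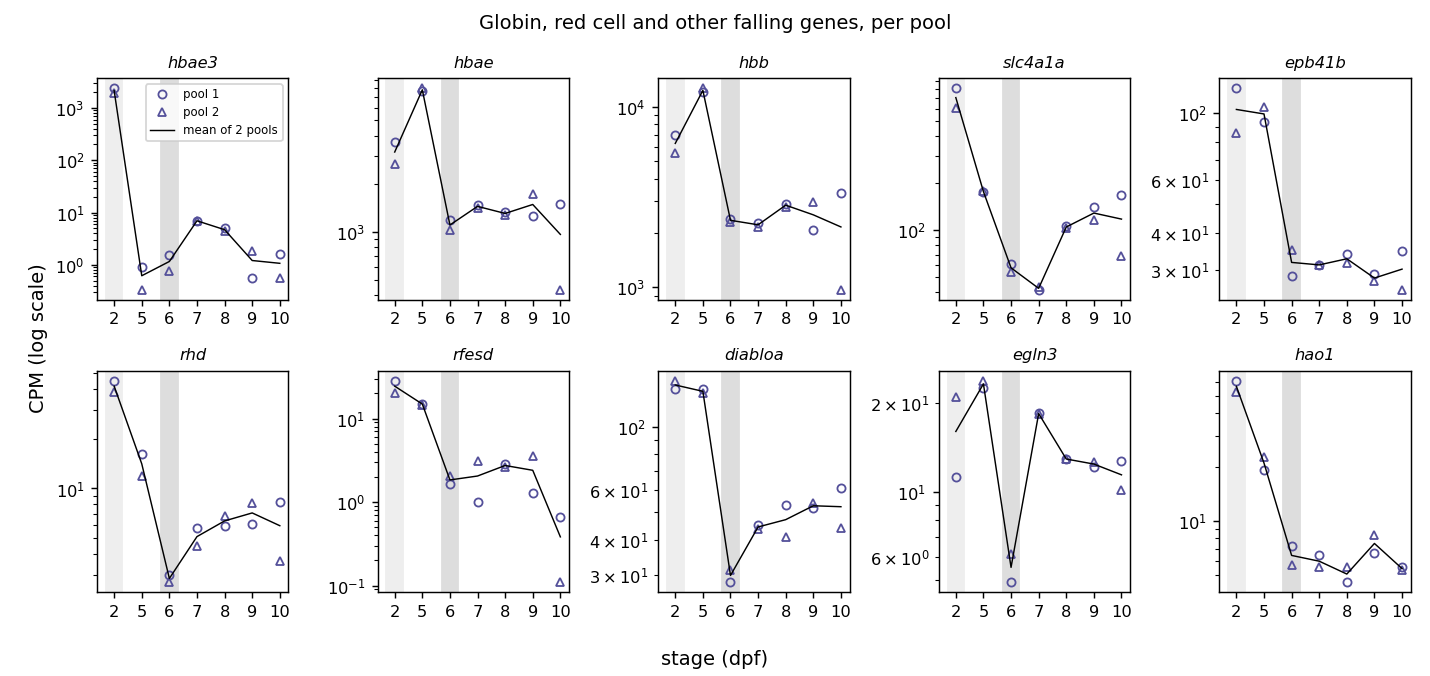
CPM on a log axis, with a scale of its own in each panel, for 10 falling genes over the 7 stages from 2 to 10 dpf; circles and triangles are the 2 pools, the line is their mean, and shading marks 2 and 6 dpf. hbae3 is lost between 2 and 5 dpf, hbae and hbb stand highest at 5 dpf and drop by 6 dpf, and slc4a1a, rhd and hao1 fall in 2 steps.

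Late falls outside the lists included more genes of blood. *rhd*, a gene of the Rh blood group family, had 45 and 38.4 CPM at 2 dpf, 16.2 and 11.9 CPM at 5 dpf, and 2.99 and 2.72 CPM at 6 dpf. *tubb1*, the beta tubulin of platelets in mammals, had 101 and 75.8 CPM at 2 dpf, 28.8 and 34.9 CPM at 5 dpf, and 6.9 and 6.32 CPM at 6 dpf. *rfesd* had 28.4 and 20.4 CPM at 2 dpf, 15.1 and 14.6 CPM at 5 dpf, and 1.65 and 2.04 CPM at 6 dpf. These 3 were incomplete at 5 dpf, with log2 differences between 6 and 5 dpf of -2.29 ± 0.34, -2.27 ± 0.40 and -3.00 ± 0.45 (SE, edgeR adjusted p = 0.00112, 0.00258 and 0.00116). *diabloa*, a mitochondrial protein that promotes apoptosis, was not seen by 5 dpf, with 135 and 145 CPM at 2 dpf, 136 and 131 CPM at 5 dpf, and 28.4 and 31.3 CPM at 6 dpf. *egln3*, an oxygen-sensing prolyl hydroxylase, had 11.2 and 20.9 CPM at 2 dpf, 22.5 and 23.8 CPM at 5 dpf, and 4.94 and 6.13 CPM at 6 dpf. At 7 dpf *egln3* had 18.5 and 18.4 CPM and *diabloa* 45 and 43.5 CPM.

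Most genes of cell division had fallen by 5 dpf. Between 6 and 5 dpf 0 were called lower by edgeR or DESeq2 (6 at an unadjusted p under 0.05), near the 2.56% of all genes. The DNA replication and mitosis list had 59 tested members. At 6 dpf 0 were higher than at 2 dpf (against 23.5% of all genes) and 33 lower (55.9%, against 9.64%). The median log2 difference was -1.04. At 5 dpf 42 were lower than at 2 dpf (71.2%, against 11.9% of all genes). Between 5 and 6 dpf *top2a* and *cdc6* rose, 2 members or 3.39% against 7.34% of all genes. *cdc25b*, a phosphatase that starts mitosis, had 311 and 292 CPM at 2 dpf, 93.1 and 93.2 CPM at 5 dpf, and 82.7 and 76.3 CPM at 6 dpf. Ribosome biogenesis was similar. Of its 44 members 26 were lower (59.1%, against 9.64% of all genes) and 0 higher (against 23.5%) at 6 than at 2 dpf. Its member *pwp1* had 31 and 36.4 CPM at 6 dpf, against 98.2 and 120 CPM at 2 dpf. Both counts of 0 higher members stayed 0 by DESeq2, at an unadjusted p under 0.05 in edgeR and without each library of 6 and 2 dpf. *top2a* and *cdc6* were named after their values were seen. Of 33 proteasome members 1 was higher and 1 lower (3.03% each, against 23.5% and 9.64% of all genes). The 1 higher member became 0 without replicate 2 of 2 or 6 dpf, and the 1 lower member became 7 without 2 dpf replicate 1, 0 without 2 dpf replicate 2, 3 without 6 dpf replicate 1 and 2 without 6 dpf replicate 2.

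Some early regulators had gone down by 5 dpf as well. Of 36 tested patterning and pluripotency factors 14 were lower at 6 than at 2 dpf, 38.9% against 9.64% of all genes. The 7 higher ones, 19.4%, lay near the 23.5% of all genes. The 0 late members lay near the shares of all genes, 2.67% for late rises and 0.91% for late falls. *sall4*, a factor of early embryonic cells, had 143 and 128 CPM at 2 dpf, 9.47 and 8.06 CPM at 5 dpf, and 9.16 and 10.2 CPM at 6 dpf. Of 10 germ line and egg markers 9 were lower at 6 than at 2 dpf (90%, against 9.64% of all genes). They were led by *ddx4*, the vasa helicase of germ cells. It had 0.412 and 0.973 CPM at 6 dpf, against 14.4 and 13.2 CPM at 2 dpf. Of 35 neural progenitor genes 15 were lower (42.9%, against 9.64% of all genes) and 3 higher (8.57%, against 23.5%). The Notch ligand *dld* of the somite list was a late fall with 158 and 156 CPM at 2 dpf, 48 and 46.5 CPM at 5 dpf, and 23.4 and 22.4 CPM at 6 dpf, a log2 difference between 6 and 5 dpf of -1.05 ± 0.14 (SE, edgeR adjusted p = 0.000746), and it was just short of a 2-fold change between 7 and 5 dpf. Of the 20 somite genes 5 were higher (25%, near the 23.5% of all genes) and 4 lower (20%, against 9.64%). *meox2b*, a muscle precursor factor, was a late rise at 11.1 and 9.92 CPM at 6 dpf, against 5.41 and 3.86 CPM at 5 dpf. The 7 higher patterning factors became 4 without 2 dpf replicate 1, 6 dpf replicate 1 or 6 dpf replicate 2, the 5 higher somite genes became 3 without 2 dpf replicate 1 or 6 dpf replicate 1, the 3 higher neural genes became 5 without 6 dpf replicate 2, and *meox2b* lost its late call without 5 dpf replicate 2 (edgeR adjusted p = 0.109) or 6 dpf replicate 1 (0.0572).

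The adaptive immunity list had 23 tested members. Of these, 9 were higher (39.1%, against 23.5% of all genes) and 1 lower (4.35%, against 9.64%) at 6 than at 2 dpf. Its 3 late rises were 13% of the list, against 2.67% of all genes. *rag1*, which cuts antigen receptor genes in developing lymphocytes, had 0.425 and 0.104 CPM at 2 dpf, 21.2 and 16.3 CPM at 5 dpf, and 35.4 and 24.4 CPM at 6 dpf, and its last step was not called (edgeR adjusted p = 0.0852). *bcl11ba* and *bcl11bb*, copies of a factor needed by T cells and also used in brain and skin, were late: *bcl11bb* had 7.65 and 6.26 CPM at 2 dpf, 23.7 and 25.2 CPM at 5 dpf, and 66.9 and 72.7 CPM at 6 dpf. The 3 late rises became 1 without 5 dpf replicate 1 or 5 dpf replicate 2, where *bcl11ba* had edgeR adjusted p of 0.0519 and 0.0564. Of 32 innate members 10 were higher (31.2%, against 23.5% of all genes) and 6 lower (18.8%, against 9.64%). The median log2 difference was -0.52. The interferon pathway factors *stat1b* and *irf1b* rose and were complete by 5 dpf. *ncf1*, an oxidase subunit of neutrophils, was a late fall at 6.69 and 6.13 CPM at 6 dpf, against 18.5 and 13.6 CPM at 5 dpf. At 8 dpf *ncf1* had 20.9 and 17.2 CPM, near its 2 dpf pools at 18.3 and 15 CPM. It was not called between 7 and 5 dpf. The late call of *ncf1* (edgeR adjusted p = 0.031) was lost without each of the 4 libraries of 6 and 5 dpf (0.0712 to 0.152).

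Pigment genes were more often higher than lower at 6 than at 2 dpf. Of 20 tested members 11 were higher (55%, against 23.5% of all genes) and 1 lower (5%, against 9.64%). The lower one (2 without 2 dpf replicate 1) was *dct*, an enzyme of melanin synthesis, with 36.1 and 36 CPM at 6 dpf, against 570 and 638 CPM at 2 dpf. *pmela*, which forms the fibres on which melanin is laid down, had 5.95 and 4.59 CPM at 2 dpf, 22.3 and 19.6 CPM at 5 dpf, and 47.7 and 53.2 CPM at 6 dpf, and was 1 of 3 late rises (15.0% of the list, against 2.67% of all genes). They became 1 without 5 dpf replicate 1, 0 without 5 dpf replicate 2 and 1 without 6 dpf replicate 2, with edgeR adjusted p for *pmela* of 0.0527, 0.0851 and 0.0537.

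The inner ear and lateral line list had 17 of 34 members higher (50%, against 23.5% of all genes) and 4 lower (11.8%, near the 9.64% of all genes). Its 2 late rises were 5.88% of the list, against 2.67% of all genes. *stm*, starmaker, which shapes otolith crystals in zebrafish, had 320 and 347 CPM at 6 dpf, against 2790 and 2550 CPM at 2 dpf. *otomp*, an otolith matrix protein, was not seen by 5 dpf, with 5.1 and 5.74 CPM at 2 dpf, 3.83 and 2.52 CPM at 5 dpf, and 12.6 and 12.6 CPM at 6 dpf. *otomp* had 3.3 and 1.78 CPM at 7 dpf. Its call between 6 and 2 dpf was lost without 2 dpf replicate 1 (edgeR adjusted p = 0.0719) or 6 dpf replicate 2 (0.0521), and that between 6 and 5 dpf without 5 dpf replicate 2 (0.0955). The 2 late members, *otomp* and *otog*, became 1 without 2 dpf replicate 1, 1 without 5 dpf replicate 1, 0 without 5 dpf replicate 2 and 0 without 6 dpf replicate 2.

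In the remaining lists few or no members were late. Higher and lower members at 6 than at 2 dpf numbered 9 and 8 of 31 for intestinal absorption, 9 and 2 of 30 for ion transport of skin and gill, 8 and 3 of 26 for kidney, 7 and 5 of 28 for skin and fin epidermis, and 0 and 3 of 8 for exocrine pancreas and digestive enzymes. Over all genes 23.5% were higher and 9.64% lower, and the shares for ion transport (30.0% and 6.67%), kidney (30.8% and 11.5%) and the higher members of skin (25%) lay near these. The 9 higher intestinal members became 5 without 2 dpf replicate 2 or 6 dpf replicate 1, and the 3 lower pancreatic members became 1 without 2 dpf replicate 1 or 6 dpf replicate 1. *vil1*, a protein of the gut brush border, had 17.8 and 13.6 CPM at 6 dpf, against 2.97 and 1.56 CPM at 2 dpf. *slc2a2*, the glucose carrier of liver and gut, had 44.2 and 41.8 CPM at 6 dpf, against 209 and 208 CPM at 2 dpf. *and2*, a protein of the fin fold rays of fish, had 76.2 and 81.6 CPM at 6 dpf, against 0.743 and 0.209 CPM at 2 dpf, and was already at 116 and 107 CPM at 5 dpf.

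Some genes stood apart at 5 dpf from both 2 and 6 dpf. Of the 20329 genes tested, 649 had no call between 6 and 2 dpf but were called lower at 5 dpf than at both. Another 136 without a call between 6 and 2 dpf were called higher at 5 dpf than at both. Transcripts of the mitochondrial genome were among them: of the 13 genes, 0 were called between 6 and 2 dpf by edgeR, at an unadjusted p under 0.05 or by DESeq2, 7 were lower at 5 than at 2 dpf and the same number was higher at 6 than at 5 dpf. *ND4*, a subunit of respiratory complex I, had 111 and 71.9 CPM at 2 dpf, 21.4 and 20.3 CPM at 5 dpf, and 177 and 83.3 CPM at 6 dpf. *COX1*, of complex IV, had 4350 and 3630 CPM at 2 dpf, 2980 and 2870 CPM at 5 dpf, and 3570 and 3660 CPM at 6 dpf, and was not called. Without 6 dpf replicate 2 the 0 genes called between 6 and 2 dpf became 1. The median log2 difference of the 13 was 1.43 between 6 and 5 dpf but 0.25 between 7 and 5 dpf, where 0 were called. It was 0.67 for 8 dpf against the mean of 7 and 9 dpf, against 0.02 for all genes, and 0 of the 13 were called there too. The 13 genes together held 0.56% and 0.45% of counts in the 2 dpf pools, 0.414% and 0.392% in the 5 dpf pools, and 0.589% and 0.544% in the 6 dpf pools. Both mitochondrial genes were named after their values were seen.

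After 6 dpf the medians of the late groups kept their distance from 2 dpf, though single members such as *agxta* came back to it. On the scale of log2(CPM + 0.5), the median of the incomplete rises relative to 2 dpf was 1.29 at 5 dpf, then 2.78, 2.75, 3.05, 2.98 and 3.38 at 6 to 10 dpf. That of the rises not seen by 5 dpf was -0.11, 1.34, 0.91, 1.14, 1.09 and 1.55 at the same stages. The falls not seen by 5 dpf had medians of -0.02, -1.29, -0.79, -1.12, -0.94 and -1.61, and the incomplete falls -1.47, -2.74, -2.72, -2.73, -2.84 and -3.08. The groups not seen by 5 dpf moved back part of the way at 7 dpf, a stage of lower mapping, while the incomplete groups hardly did. At 9 dpf, also of lower mapping, the falls not seen moved back from -1.12 to -0.94. The rises not seen then moved from 1.14 to 1.09, no more than the incomplete rises, from 3.05 to 2.98.

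**Figure D5:**
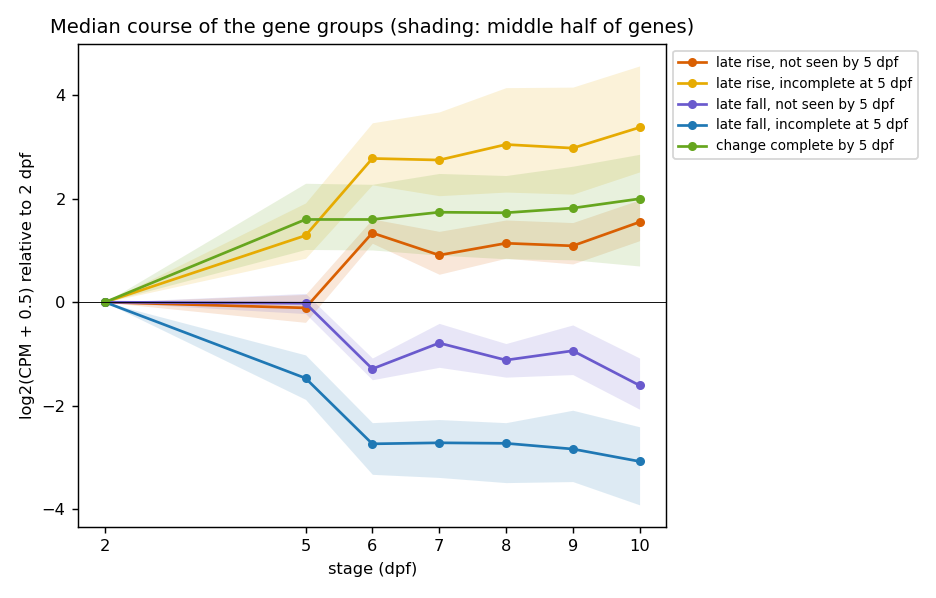
Median log2(CPM + 0.5) relative to 2 dpf of the 4 late groups and of the genes complete by 5 dpf, against stage in dpf, with shading from the lower to the upper quartile of genes. The orange and violet lines, not seen by 5 dpf, start at -0.11 and -0.02 at 5 dpf, reach 1.34 and -1.29 at 6 dpf and stand nearer to 0 at 7 dpf.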

How the data were processed

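Ribosomal RNA was depleted from whole-fish RNA and paired-end libraries were sequenced. Per the labels and the study's methods, the authors trimmed reads with Trimmomatic 0.36, aligned them with STAR 2.7.0 and counted them over exons with HTSeq. The genome build, annotation and strand setting are not given in the sources used here. The authors deposited raw counts per gene, which were used as deposited.

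The table of 23235 lines became 23231 genes after the 7 lines of 3 repeated identifiers were summed. Symbols came from RefSeq (Coco_2.0) and matched 21834 genes. Low counts were filtered with edgeR 4.0.16 (filterByExpr), libraries were scaled by TMM, and 1 quasi-likelihood model with stage as the factor was fitted to all 14 libraries, with Benjamini-Hochberg adjustment over 20329 genes. Standard errors were obtained by dividing the log2 fold change by the root of F. On counts simulated for the comparison of 6 with 2 dpf, 99% of 200 genes changed by 4-fold were recovered with 6 false calls, and for 6 with 5 dpf 98% with 5. The changed genes were drawn from well-counted ones, no other gene changed, and every gene had the same dispersion of 0.05. No difference in mapping was simulated. These figures check the code under those settings and do not give the recovery or false calls of the real comparisons. Counting intervals are exact binomial at 95% and cover counting error only.

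The members and the 29 gene lists, of which 28 had members by symbol, were chosen with earlier results of these data known. List names matched symbols with duplicates a and b, less 4 false matches. Named genes had a symbol other than a locus number or clone name and at least 10 CPM at the higher stage. They were the 5 largest rises and falls between 2 and 6 dpf, the 5 largest steps between 5 and 6 dpf in each late group whose 6 dpf pools overlapped neither other stage, and in each list the 3 largest members of each kind. Alternatives were RLE scaling, no low-count filter, at least 10 counts per library throughout, DESeq2 1.42.0, a test against a 2-fold change, fits on fewer stages, a replicate block, other thresholds for a change seen by 5 dpf, and leaving out each library. Results on 2 named genes are not reported here.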

Additional observations from a re-analysis of the deposited data

Results flagged for a closer look

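A set of 18 genes was called in opposite directions at 5 dpf and at 6 dpf, each against 2 dpf, 15 of them higher and 3 lower at 6 dpf. For these the difference between the stages was itself tested by the comparison of 6 with 5 dpf, and both effects share the 2 dpf libraries. *zfhx4* had log2 differences of -1.35 between 5 and 2 dpf and 1.44 between 6 and 2 dpf, and *zeb2b* of -1.50 and 1.33. *hbae* went the other way, with 1.30 and -1.52. At 7 dpf *zfhx4* had 85.9 and 89.5 CPM, close to its 2 dpf pools at 92.1 and 69 CPM, and *hbae* had 1470 and 1410 CPM, close to its 6 dpf level.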

How the results depend on the processing

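RLE scaling, no filter and DESeq2 left the counts of genes called and of each late or complete group within 1.5 times, as did fits on fewer stages for the counts called, the only ones they gave. Counts of list members moved more in 2 cases under RLE, 4 under DESeq2 and 4 without a filter, among them lower proteasome members (1, against 3 under RLE and 3 under DESeq2) and late falls of cartilage (1, against 2 and 3). Testing against a 2-fold change left 4182 calls in 6 against 2 dpf, 3858 in 5 against 2 dpf and 166 in 6 against 5 dpf, with 20 rises not seen by 5 dpf, 25 incomplete rises, 4 falls not seen, 7 incomplete falls and 2034 changes complete by 5 dpf. A minimum of 10 counts in every library left 3945 calls in 6 against 2 dpf, 4300 in 5 against 2 dpf and 551 in 7 against 5 dpf, with 154 incomplete rises and 2012 complete changes. A lower fold for a change seen by 5 dpf left 2153 complete changes. Among alternatives chosen after seeing the data, a call at 7 against 5 dpf as well left 78, 170 and 38 genes in rises not seen, incomplete rises and falls not seen, and a mean of at least 10 CPM left 174 incomplete rises. Leaving out 1 library gave 6001 to 6464 calls in 6 against 2 dpf, 5969 to 6264 in 5 against 2 dpf, 859 to 1239 in 6 against 5 dpf, 319 to 377 in 7 against 5 dpf and 16 to 205 for 8 dpf against 7 and 9 dpf. The late groups held 85 to 218 rises not seen, 84 to 303 incomplete rises, 63 to 113 falls not seen and 31 to 61 incomplete falls, and 2853 to 3143 changes were complete.

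Same-numbered pools did not deviate together (r = -0.0171 for 6 and 2 dpf, 0.00117 for 6 and 5 dpf), so the numbers pair nothing. With the replicate block 6713 genes were called in 6 against 2 dpf, 6708 in 5 against 2 dpf and 1912 in 6 against 5 dpf, and the late call of *hpxa* was lost (edgeR adjusted p = 0.0623). Of 162 results on named genes 133 kept their call in every alternative applied to single genes, 26 lost it only on leaving out a library, and 0 reversed. The test against a 2-fold change and the fits on only the 4 libraries compared were not applied to single named genes. Among counts of late list members the 2-fold test moved 20 and left 36 the same. It left 0 late rises of skeletal muscle, 1 of photoreceptors and 0 late falls of the erythroid list. The promoter search was not run, since no promoter sequence was used here. Low depth at 5 dpf, where 3 counts are 0.69 and 0.51 CPM, limits the calls on weakly expressed genes. The causes were not tested.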

Other observations

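Lists chosen after the values were seen gave a further description, with no test of the list. All 3 nuclear factor I genes tested, transcription factors of glia, muscle and other maturing tissues, were late rises. *nfixb* averaged 2.64 CPM at 2 dpf, 20.3 CPM at 5 dpf and 67.6 CPM at 6 dpf, *nfia* 1.8, 7.55 and 23.7 CPM, and *nfic* 5.28, 5.25 and 31.3 CPM, so that *nfic* alone was not seen by 5 dpf. At 7 dpf all 3 were below 6 dpf, with means of 49.8 CPM for *nfixb*, 12.2 CPM for *nfia* and 14.8 CPM for *nfic*. Only *nfixb* was called higher at 7 than at 5 dpf.

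Of 36 genes of the response to low oxygen, 3 were higher and 8 lower at 6 than at 2 dpf, 9 were higher and 5 lower at 5 than at 2 dpf, and 4 were higher and 10 lower at 6 than at 5 dpf. Over all genes the shares were 23.5% and 9.64%, 21.3% and 11.9%, and 7.34% and 2.56% in these comparisons, so that the 25% higher and 13.9% lower at 5 dpf lay near the background. The glycolytic enzyme *ldha* averaged 164 CPM at 2 dpf, 511 CPM at 5 dpf and 227 CPM at 6 dpf, and *pgk1* 93.9, 256 and 126 CPM, both called between 6 and 5 dpf and not between 6 and 2 dpf. The stress gene *ddit4* averaged 70.5, 176 and 49.4 CPM. *hif1al2*, of the hypoxia-inducible factor family, and *egln2*, a prolyl hydroxylase that acts on such factors, were late falls not seen by 5 dpf. *ca9*, a carbonic anhydrase, was a late fall incomplete at 5 dpf with 62.9, 17.1 and 7.66 CPM. The low level of *egln2* did not last, with means of 29.5 CPM at 2 dpf, 11.7 CPM at 6 dpf, 25.9 CPM at 7 dpf and 31.2 CPM at 10 dpf. The 4 members called higher at 6 than at 5 dpf were *hk2*, *hif1ab*, *epas1b* and *aldoca*. Opposite to *ldha* and *pgk1*, *hk2* and *hif1ab* were called lower at 5 than at 2 dpf, with no call between 6 and 2 dpf. Late rises were *epas1b*, not seen by 5 dpf, and *aldoca*, incomplete at 5 dpf. At 7 against 5 dpf 0 of the 36 were higher and 5 lower.

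Of 10 tested genes of thyroid hormone action, 6 were higher and 2 lower at 6 than at 2 dpf (60% and 20%, against 23.5% and 9.64% of all genes). Of the higher members *dio2* and *tshr* rest on few reads. In both libraries of a stage together, *dio2* had 0 counts at 2 dpf and 8 at 6 dpf, and *tshr* had 9 and 29. *thrab* and *tg* were late rises. *slc16a10*, a membrane carrier, was a late fall, with means of 47.1 CPM at 2 dpf, 39.7 CPM at 5 dpf and 19.5 CPM at 6 dpf. *dio3b*, a deiodinase that inactivates thyroid hormone, fell between 2 and 6 dpf, with means of 157 CPM at 2 dpf, 55 CPM at 5 dpf and 36 CPM at 6 dpf, and its step between 5 and 6 dpf was not called.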
